A study of Mus musculus with 5 samples.

Results

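The genes described here are 10 integrin genes, Itga1, Itga3, Itga5, Itga6, Itgav, Itgb1, Itgb3, Itgb4, Itgb5 and Itgb8, out of 19938 named genes measured on whole-transcript arrays. They were chosen by name, as array features whose annotation gives exactly 1 gene symbol, and each of the 10 had 1 such feature. The arrays hold RNA of C57BL/6 mouse embryonic stem cells kept undifferentiated, from 3 cultures labelled Mkl2-/- and 2 labelled wild type, which the series calls independent. Mkl2, named Mrtfb in the annotation used here, encodes a myocardin-related transcription factor that works with serum response factor (SRF), and the series asks how its loss affects TGF-beta signalling. Cells of both genotypes were grown with serum and leukaemia inhibitory factor on gelatin and feeder fibroblasts, and feeders were depleted by letting them attach to a dish before lysis. The sources used here do not state how the Mkl2 allele was made or how many cell lines stand behind each genotype. The p-values therefore measure at most the spread between these cultures.

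Integrins are cell surface receptors made of 1 alpha and 1 beta chain, and they tie the extracellular matrix to the actin cytoskeleton. The pair of chains sets the ligand: Itga5 with Itgb1 binds fibronectin, the Itgav pairs bind matrix proteins and latent TGF-beta through the arginine-glycine-aspartate motif, Itga3 and Itga6 form laminin receptors, and Itga1 with Itgb1 binds collagen. Integrin engagement feeds actin assembly, and free actin in turn holds myocardin-related factors in the cytoplasm. In embryonic stem cells Itgb1 is the common partner for attachment to laminin and fibronectin.

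Expression is given as the deposited log2 value, and differences are Mkl2-/- minus wild type. Array medians lay between 7.94 and 7.98, and precision is limited by having 5 arrays. A background level of 7.30 was set so that 95% of the 1027 olfactory receptor genes had a mean below it. The Mkl2 transcript had 9.32, 9.32 and 9.09 in Mkl2-/- cells, against 9.80 and 9.75 in wild-type cells (feature of Mrtfb with the highest signal; limma adjusted p = 0.048). The other 2 Mrtfb features differed by -0.83 and -0.98 (limma adjusted p = 0.0205 and 0.0309 in the fit of all features, where the first had 0.067). The sources used here do not place these features relative to the deletion, so they are no check of the deletion. All 12 stem cell markers lay above background, among them Pou5f1 at 12.5 in Mkl2-/- and in wild-type cells.

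Of the 10 integrin genes, Itga5, Itgb1, Itgb5 and Itgb8 fell in Mkl2-/- cells, Itgb4 rose, and 5 did not pass the test (limma with Benjamini-Hochberg adjustment over all genes, threshold 0.05). Over all 19938 genes, 6.28% passed as lower and 2.99% as higher; among the 13563 genes above background, where 9 of the 10 integrin genes lie, the shares were 8.78% and 4.15%. The median difference of the 10 was -0.28, against 0.02 over all genes and 0.01 over genes above background. The arrays of both genotypes did not overlap for 8 of the 10, with Mkl2-/- lower in 7 and higher in 1. Over all genes 16.7% were separated with Mkl2-/- lower and 16.9% with Mkl2-/- higher. Separation was more common among the 13563 genes above background, with 3077 lower and 2749 higher in Mkl2-/- cells. In bulk RNA, fewer cells of a type and less RNA per cell cannot be told apart.

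**Figure D1:**
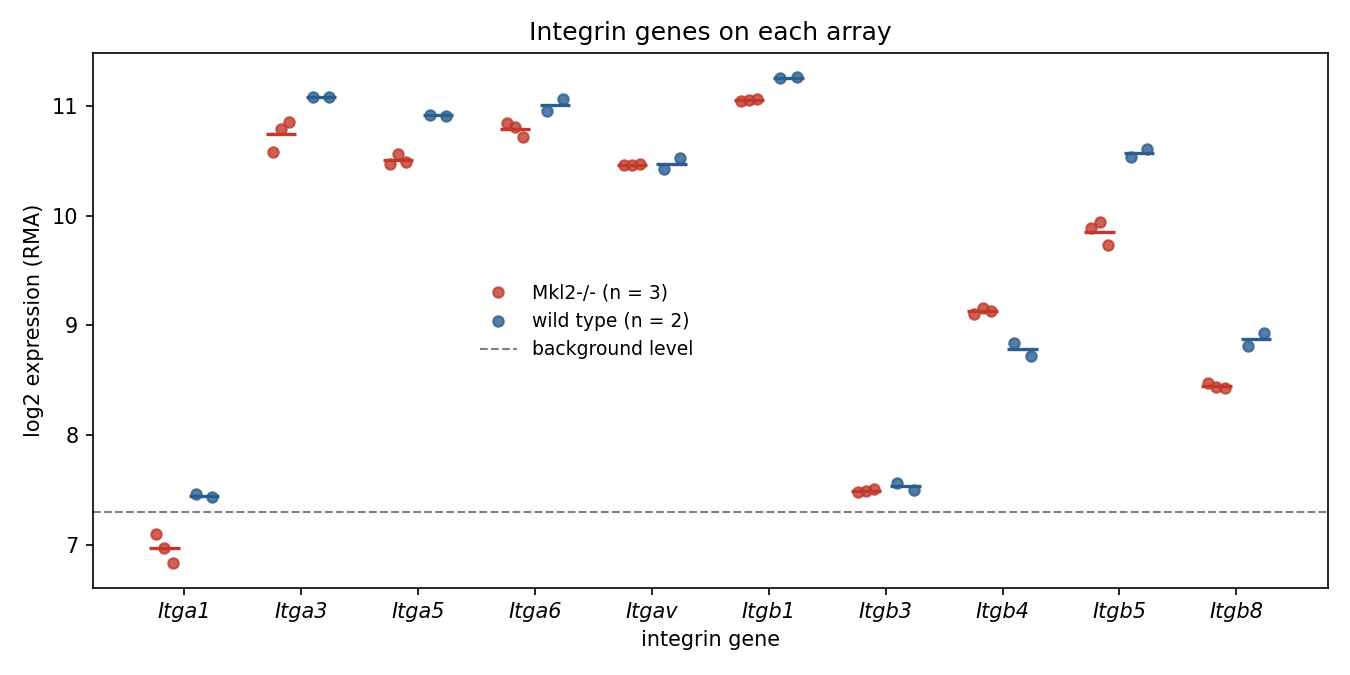
Log2 expression (vertical axis) of the 10 integrin genes on each array, with 3 Mkl2-/- arrays in red on the left of each pair and 2 wild-type arrays in blue on the right; short lines are group means and the dashed line is the background level of 7.30. The arrays of both genotypes are apart for 8 genes and overlap for Itgav and Itgb3, and Itgb4 is the gene with higher Mkl2-/- arrays.

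The widest difference among the 10 was in Itgb5, the beta chain that joins Itgav in a vitronectin receptor. Itgb5 had 9.89, 9.94 and 9.73 in Mkl2-/- cells, against 10.53 and 10.61 in wild-type cells. All Mkl2-/- arrays lay below both wild-type arrays, and the gap between groups exceeded the spread within either. The difference was -0.72 ± 0.08 (SE, n = 3 and 2; 95% interval -0.93 to -0.50), a 1.64-fold lower level with a limma adjusted p of 0.0203. Of all genes, 1.41% had a lower difference than Itgb5.

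Itgb8, the Itgav partner known for releasing active TGF-beta from its latent complex, also fell. It had 8.47, 8.44 and 8.43 in Mkl2-/- cells, against 8.81 and 8.93 in wild-type cells. All Mkl2-/- arrays were lower, with an SD of 0.02, against an SD of 0.08 in wild-type cells. The difference of -0.42 ± 0.04 (SE; 95% interval -0.54 to -0.30) was a 1.34-fold lower level (limma adjusted p = 0.0182).

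Itgav itself, the alpha chain shared by these receptors, did not pass the test. Its values were 10.46, 10.46 and 10.47 in Mkl2-/- cells and 10.42 and 10.52 in wild-type cells. The Mkl2-/- arrays fell between the 2 wild-type arrays. The difference was -0.01 ± 0.03 (SE; limma adjusted p = 0.924), with a 95% interval of -0.10 to 0.09 that leaves out changes of the size seen in Itgb5 or Itgb8. Itgb3, a further Itgav partner and the platelet fibrinogen receptor chain, lay just above background with 7.48, 7.49 and 7.51 in Mkl2-/- cells and 7.56 and 7.50 in wild-type cells. These groups overlapped, and the difference of -0.04 (95% interval -0.10 to 0.03; limma adjusted p = 0.403) did not pass.

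The chains of the fibronectin receptor, Itga5 and Itgb1, both fell. Itga5 had 10.47, 10.56 and 10.49 in Mkl2-/- cells, against 10.92 and 10.91 in wild-type cells. The groups were far apart relative to their SDs of 0.05 and 0.01, and the difference was -0.41 ± 0.03 (SE; 95% interval -0.50 to -0.32), a 1.33-fold lower level (limma adjusted p = 0.0125). Itgb1 had 11.04, 11.05 and 11.06 in Mkl2-/- cells, against 11.25 and 11.26 in wild-type cells. Its arrays agreed within 0.01 (SD) in both groups, and it had the smallest p of the 10 although its fall was the smallest of the 4 that passed (-0.21 ± 0.01, SE; 1.15-fold lower; limma adjusted p = 0.0082).

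Promoter sequences are shown for Itga5 and Itgb1, which fell together and were the 2 of 7 integrin genes with a RefSeq promoter entry to hold a near match to the SRF motif, and for Itgb5, which had the widest fall and held none. Each run is the 250 bases before the gene's start on its own strand (RefSeq, GRCm38.p6): Itga5 at chr15:103366792-103367041 on the minus strand, Itgb1 at chr8:128685404-128685653 on the plus strand and Itgb5 at chr16:33829415-33829664 on the plus strand. Capitals mark a CArG box with 1 departure from A or T in its core (both genes) and, at the end of the Itgb1 run, the TEAD motif GGAATG.
Itga5: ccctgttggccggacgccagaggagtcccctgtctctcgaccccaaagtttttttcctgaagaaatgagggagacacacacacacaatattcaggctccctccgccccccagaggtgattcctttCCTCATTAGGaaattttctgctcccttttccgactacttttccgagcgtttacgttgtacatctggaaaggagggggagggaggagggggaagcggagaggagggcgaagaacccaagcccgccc
Itgb1: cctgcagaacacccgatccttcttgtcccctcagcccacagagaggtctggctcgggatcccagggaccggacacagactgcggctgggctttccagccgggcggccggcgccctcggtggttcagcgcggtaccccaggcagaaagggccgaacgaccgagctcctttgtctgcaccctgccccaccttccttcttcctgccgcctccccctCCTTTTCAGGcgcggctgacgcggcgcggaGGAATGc
Itgb5: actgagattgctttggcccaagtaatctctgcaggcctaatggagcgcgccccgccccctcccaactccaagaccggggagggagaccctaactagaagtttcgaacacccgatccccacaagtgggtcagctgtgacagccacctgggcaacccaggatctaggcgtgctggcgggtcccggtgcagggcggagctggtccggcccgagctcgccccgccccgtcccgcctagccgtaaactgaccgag

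The Itga5 match CCTCATTAGG lies 125 to 116 bases before the start, and the Itgb1 match CCTTTTCAGG lies 37 to 28 bases before it. No integrin gene with an entry held a full CArG box in this window, against 1.47% of all 32851 promoter windows of the same length; the form with 1 departure or none occurs in 8.59% of them. The motif GGAATG, searched on both strands, occurs in 12.6% of windows and among the integrin entries stood 7 to 2 bases before the Itgb1 start. The GC box GGGCGG, searched on both strands, was present in Itga3, Itga5, Itgb1 and Itgb5 and in 32.7% of all windows; the motifs do not overlap each other in the 3 runs shown. These matches describe the letters of the windows and are not evidence of binding.

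Among the chains particular to laminin receptors, Itgb4 rose, while Itga3 and Itga6 had negative differences that did not pass the test; their shared partner Itgb1 fell, as given above. Itgb4, which pairs with Itga6 in the hemidesmosomes of epithelia, had 9.10, 9.16 and 9.13 in Mkl2-/- cells, against 8.84 and 8.72 in wild-type cells. All Mkl2-/- arrays were higher, with a difference of 0.35 ± 0.04 (SE; 95% interval 0.22 to 0.48; 1.27-fold higher; limma adjusted p = 0.0285). Its partner Itga6 had 10.84, 10.81 and 10.72 in Mkl2-/- cells, against 10.95 and 11.06 in wild-type cells. Those arrays did not overlap, but the difference of -0.21 ± 0.06 (SE; 95% interval -0.37 to -0.06) did not pass over all genes (limma adjusted p = 0.114). Itga3 had 10.58, 10.79 and 10.85 in Mkl2-/- cells and 11.08 on both wild-type arrays. Mkl2-/- replicate 1 was the lowest of these, and the difference of -0.34 ± 0.09 (SE; limma adjusted p = 0.131) did not pass.

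The collagen receptor chain Itga1 was the one gene of the 10 with a mean below background. It had 7.10, 6.97 and 6.83 in Mkl2-/- cells, all under the background level, against 7.46 and 7.43 in wild-type cells, both just over it. With the Mkl2-/- arrays set to 7.30 the level was at least 1.11-fold lower, while the fitted difference of -0.48 ± 0.09 (SE) did not pass the test (limma adjusted p = 0.0602). It passed after a further quantile normalization (limma adjusted p = 0.0106) or cyclic loess (0.0156), as did Itga6 (0.0442 and 0.0305).

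Because alpha and beta chains act as pairs, the log2 ratio of a beta chain to its alpha partner was also compared between genotypes within arrays. A ratio of 2 features has no meaning as a level, so its shift between genotypes is what is given. Itgb5 over Itgav was -0.57, -0.52 and -0.74 in Mkl2-/- cells, against 0.11 and 0.09 in wild-type cells, a shift of -0.71. Itgb8 over Itgav was -1.99, -2.02 and -2.04 in Mkl2-/- cells, against -1.61 and -1.59 in wild-type cells, a shift of -0.42. Itgb4 over Itga6 went the other way, at -1.74, -1.65 and -1.59 in Mkl2-/- cells, against -2.11 and -2.34 in wild-type cells, a shift of 0.56.

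The groups did not overlap in those 3 ratios. Itgb1 over Itga5 was 0.57, 0.49 and 0.57 in Mkl2-/- cells, against 0.33 and 0.35 in wild-type cells, so Itga5 was lower relative to Itgb1 in all Mkl2-/- arrays (shift 0.20). Itgb1 over Itga6 overlapped between genotypes (shift 0.01), as did Itgb3 over Itgav (shift -0.03). The other 3 of the 9 pairs compared did not overlap either: Itgb1 over Itga1 shifted by 0.27, over Itga3 by 0.14 and over Itgav by -0.20. How often ratios of other gene pairs separate was not counted. Of single genes, 16.7% were separated with Mkl2-/- lower and 16.9% with Mkl2-/- higher. Among the 13563 genes above background, the counts were 3077 lower and 2749 higher. Since Itgav differed by -0.01, the shifts of Itgb5 and Itgb8 over Itgav restate the differences of those genes. The ratios were not tested: with 3 arrays against 2, an exact permutation test of a single ratio allows no p below 0.1.

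The differences of the integrin genes were compared with those of their chromosome neighbours, the nearest 12 genes above background on each side where the chromosome had that many. The neighbour medians lay between -0.06 (Itga1) and 0.07 (Itga6). Itgb5 lies on chromosome 16, as does Mkl2; its 24 neighbours had a median of 0.01, and Parp14 (-0.89) was the neighbour with a lower difference than Itgb5. For Itga3, Itga6, Itgb4 and Itgb8 no neighbour had a difference as large in the same direction. For Itga5, 3 of 15 neighbours had a difference as low, and for Itga1 3 of 23 did, among them Fst (-0.62), which encodes follistatin. For Itgb1, 1 of 12 neighbours did, Sipa1l2 (-0.21). Neighbours that passed as lower were 6 of 23 for Itga1, 3 of 15 for Itga5, 2 of 12 for Itgb1 and 3 of 24 for Itgb5. Each other integrin gene had 0 or 1, and 0 to 2 neighbours per gene passed as higher. Of all genes above background, 8.78% passed as lower and 4.15% as higher.

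**Figure D2:**
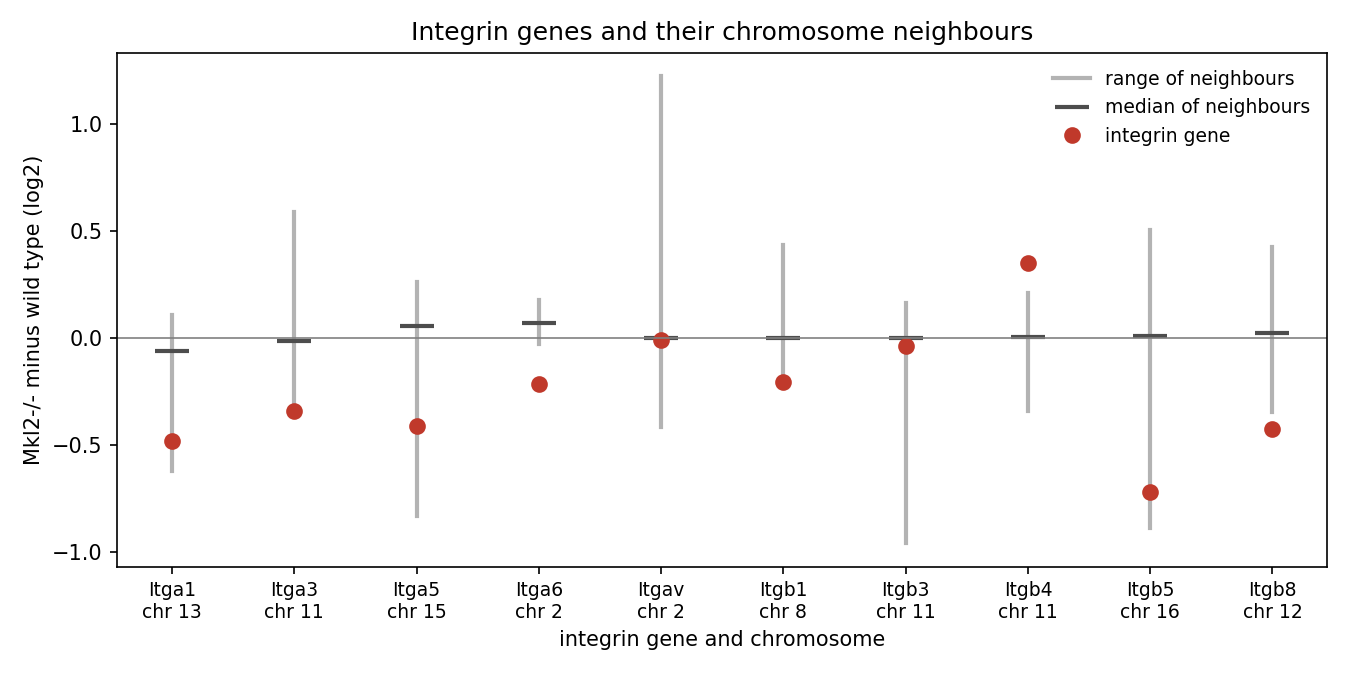
Difference in log2 expression, Mkl2-/- minus wild type (vertical axis), of each integrin gene (red points) with the range (grey bars) and median (dark ticks) of its chromosome neighbours above background. All neighbour medians lie between -0.06 and 0.07, while Itgb5 sits at -0.72 and Itgb4 at 0.35.

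None of the other 17 integrin subunit genes passed the limma test in either direction, and 0 of the 17 had an unadjusted p under 0.05. Their differences ran from -0.04 (Itga9) to 0.16 (Itgb7) with a median of 0.05, and their smallest limma adjusted p was 0.237. These 17 genes were dimmer, with a median level of 7.66 over all arrays, against 10.3 for the 10 integrin genes described. Differences of dim features are compressed, so the 2 sets cannot be compared on equal terms. The list holds 10 genes above background: Itga2b, Itga7, Itga8, Itga9, Itga10, Itga11, Itgad, Itgal, Itgb2l and Itgb7. Itgb7, a lymphocyte chain, had 7.89, 7.80 and 7.84 in Mkl2-/- cells, against 7.76 and 7.60 in wild-type cells. Itga8, which pairs with Itgb1 as a receptor for nephronectin, had 8.27, 8.33 and 8.24 in Mkl2-/- cells, against 8.13 and 8.22 in wild-type cells. These 2 and Itgal and Itgam, 4 of the 17, had no overlap between groups with Mkl2-/- higher, a share near the 16.9% of all genes, while Itgad was listed at 7.71 on all 5 arrays. Itgb6, a further Itgav partner, lay below background at 5.68, 5.68 and 5.72 in Mkl2-/- cells and 5.68 on both wild-type arrays.

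**Figure D3:**
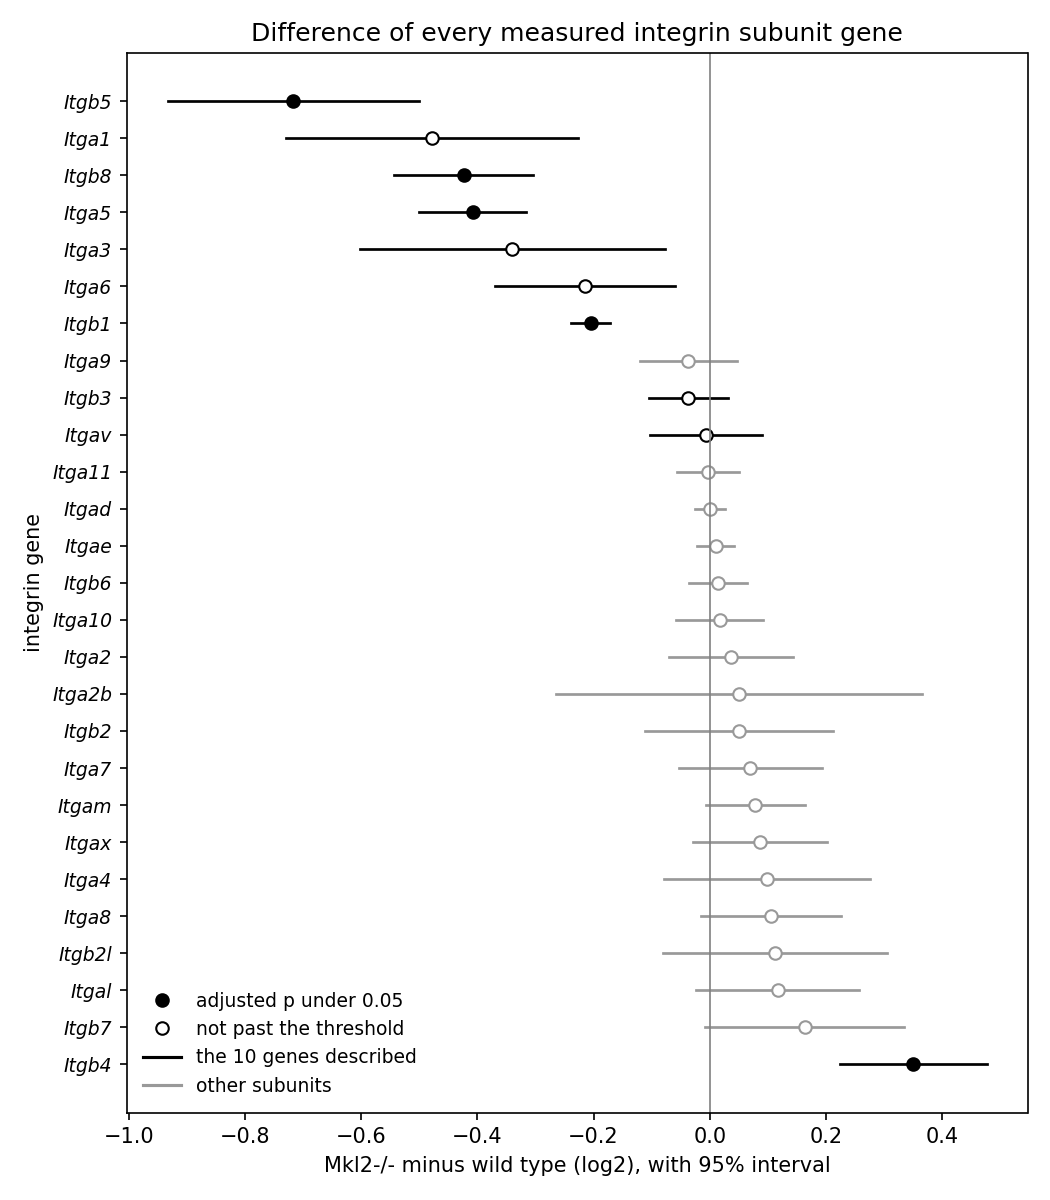
Difference in log2 expression, Mkl2-/- minus wild type, with its 95% interval (horizontal axis) for all 27 measured integrin subunit genes, ordered by difference; filled points passed an adjusted p of 0.05, black marks the 10 genes described and grey the other 17. Itgb5, Itgb8, Itga5 and Itgb1 are filled on the left and Itgb4 on the right, and all 17 grey intervals reach 0.

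Inside the cell, adaptor proteins link integrin tails to actin. Of 34 measured adaptor genes, 7 fell, 2 rose and 25 did not pass, with a median difference of -0.03; of all genes above background, where 32 of the 34 lie, 8.78% fell and 4.15% rose. Parva, which encodes the actin-binding alpha-parvin of the complex with integrin-linked kinase, had 9.56, 9.47 and 9.49 in Mkl2-/- cells, against 10.35 and 10.53 in wild-type cells. Its groups were well separated, with a 1.91-fold lower level (limma adjusted p = 0.0108). Vcl, for vinculin (-0.45), Tgfb1i1, for the focal adhesion protein Hic-5 (-0.37), and Tln1, for talin, which binds and activates integrin beta tails (-0.14), also fell, but Tln1 did not pass after quantile normalization (limma adjusted p = 0.0925). Fermt1, for kindlin-1 of epithelia, rose by 0.24, whereas Fermt2, for the widely expressed kindlin-2 (-0.09; limma adjusted p = 0.0624), and Ilk, for integrin-linked kinase (-0.14; limma adjusted p = 0.146), did not pass.

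Of 33 measured ligand genes, 26 of them above background, 6 fell, 2 rose and 25 did not pass, with a median of -0.04. The shares over all genes above background were 8.78% lower and 4.15% higher. Fn1, for fibronectin, the ligand of Itga5 with Itgb1, had 12.05, 11.97 and 11.86 in Mkl2-/- cells and 12.57 on both wild-type arrays. It fell 1.53-fold (limma adjusted p = 0.019). Tgfb1, whose latent form is bound by Itgav pairs, fell 1.53-fold as well (limma adjusted p = 0.0064), with 9.20, 9.21 and 9.15 in Mkl2-/- cells against 9.78 and 9.82 in wild-type cells. Ccn1 (Cyr61), a matricellular integrin ligand, fell by 0.84 on the log2 scale and Thbs1, for thrombospondin, by 0.46. Vtn, for vitronectin, was listed at 6.67 on all 5 arrays, below background.

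Laminin genes, whose products are ligands of Itga3 and Itga6, were among the ligand genes that passed, in both directions. Lama1 had 9.71, 9.83 and 9.93 in Mkl2-/- cells, against 8.42 and 8.32 in wild-type cells. This was a 2.74-fold rise (limma adjusted p = 0.0079), and Lamb1 rose by 0.19. Lamb2 fell by 0.30, and Lama5 (-0.27, limma adjusted p = 0.08) passed as lower only after quantile normalization (0.0306) or cyclic loess (0.0225). Lamc1 (-0.10, limma adjusted p = 0.156), Lama2, Lama3, Lama4 and Lamb3 did not pass with all arrays.

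**Figure D4:**
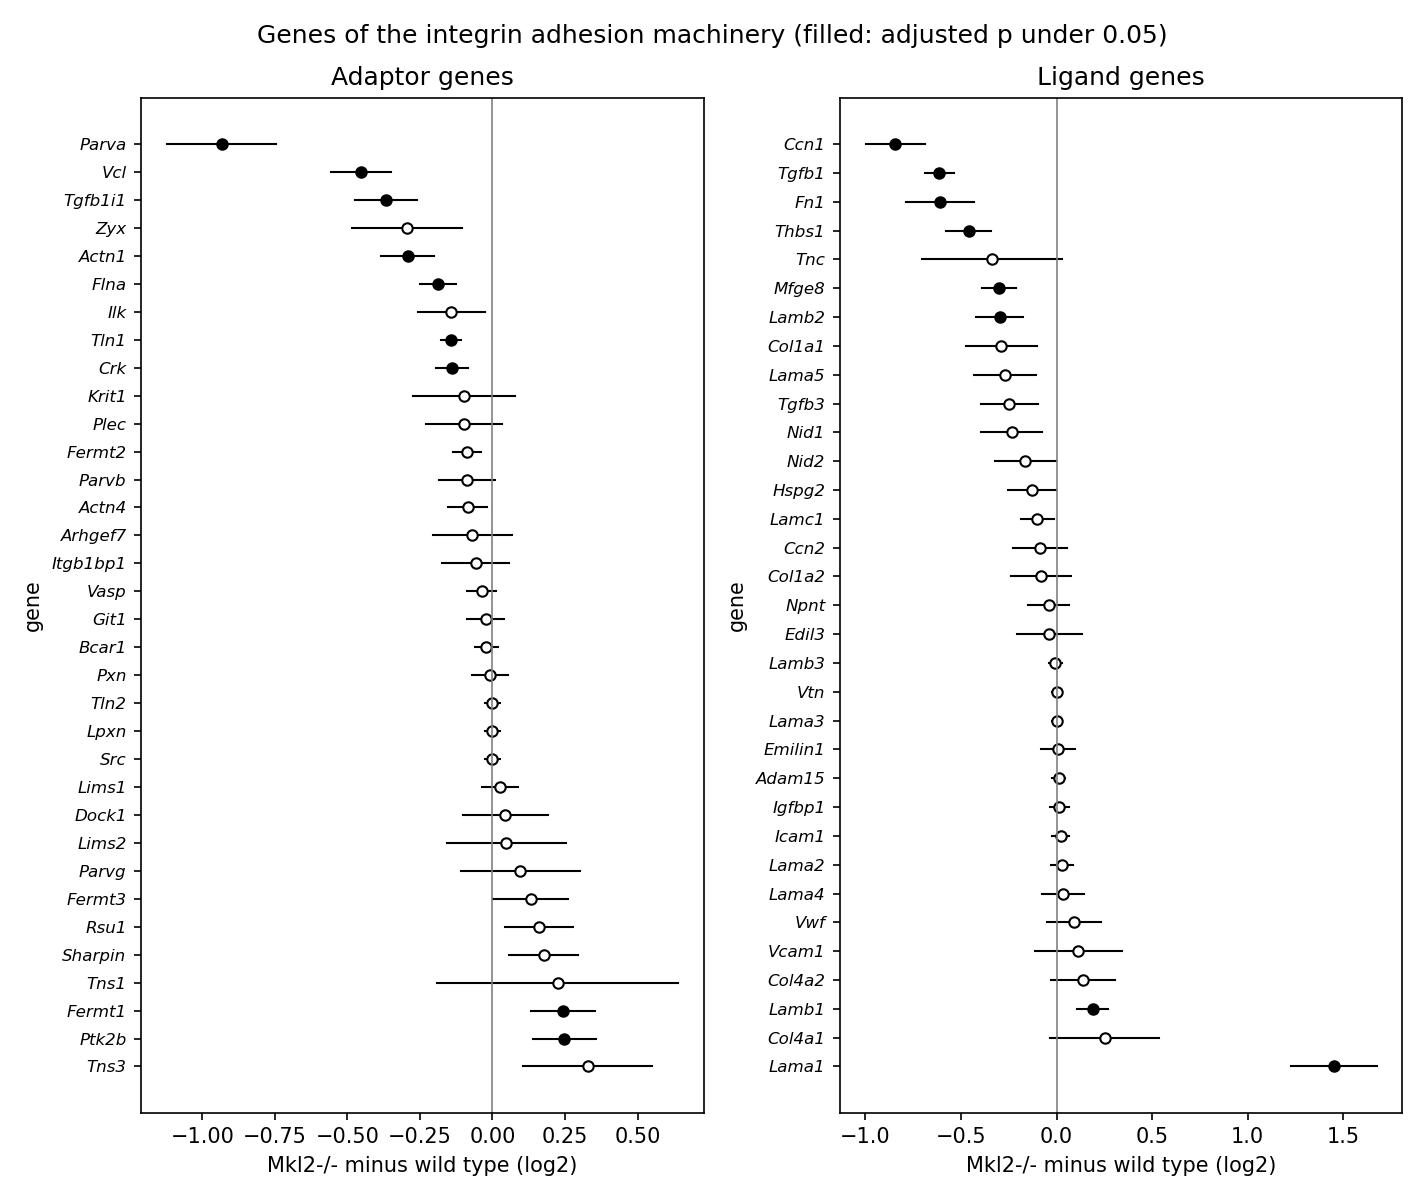
Difference in log2 expression, Mkl2-/- minus wild type, with its 95% interval (horizontal axes) for 34 adaptor genes (left) and 33 ligand genes (right); filled points passed an adjusted p of 0.05. Parva and Ccn1 stand lowest in their panels, and Lama1 is far to the right of the other ligands at 1.45.

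Markers of other cells were followed beside these results. Of all genes above background, 8.78% fell and 4.15% rose, and these shares belong beside the counts of each marker list below. Of 22 fibroblast markers 4 fell, 1 rose and 17 did not pass, with a median of -0.07. The fibroblast list had a mean log2 level of 8.32 to 8.35 in Mkl2-/- arrays and 8.46 on both wild-type arrays. Its median level was 8.16 to 8.22 in both genotypes. Of the 22, 19 lay above background, while Lum, Postn and Fap lay below it on all arrays. The genotypes did not overlap for 8 of the 22 with Mkl2-/- lower and for 2 with Mkl2-/- higher. Of the 13563 genes above background, 3077 were separated with Mkl2-/- lower and 2749 with Mkl2-/- higher. Fstl1 (-0.88), Mmp2 (-0.26), Pdgfrb (-0.28) and Sparc (-0.24) fell and Twist1 (0.31) rose. Col1a1 (-0.29, limma adjusted p = 0.0901) and Col3a1 (0.05, 0.408) did not pass. Vim (-0.32, limma adjusted p = 0.0758), Dcn (-0.195, 0.275) and Twist2 (-0.193, 0.287) were lower on all Mkl2-/- arrays but did not pass either. Fibroblasts also express Itga5, Itgb1 and Itgb5, and the part of carried-over feeders in the falls was not tested.

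Of 13 primitive endoderm markers 5 rose and 1 fell, with a mean level of 8.91 to 9.08 in Mkl2-/- arrays and 8.47 to 8.54 in wild-type arrays. Their median level was 8.78 to 9.03 in Mkl2-/- arrays and 8.09 to 8.27 in wild-type arrays. Cubn (at least 4.02-fold higher), Pdgfra (0.75), Gata4 (0.93) and Gata6 (0.94) rose and Lrp2 (-0.57) fell. Lamb1 and Col4a1 stand in this list as well as among the ligands, as do Col1a1 and Col1a2 of the fibroblast list. The part of primitive endoderm cells in the rises of Lama1 and Lamb1 was not tested. Of 11 trophoblast markers 4 fell, Cdx2 (-0.37), Krt8 (-0.54), Esx1 (-0.10) and Krt18 (-0.65), and none passed as higher. Hand1 was higher on all Mkl2-/- arrays (0.47) but did not pass the test (limma adjusted p = 0.0654). Esx1 did not pass after quantile normalization (limma adjusted p = 0.19) or with the trend and robust prior (0.0533). The trophoblast list had a mean level of 8.72 to 8.79 in Mkl2-/- arrays and 8.89 to 8.91 in wild-type arrays. Its median level overlapped, at 8.10 to 8.17 in Mkl2-/- arrays and 8.12 to 8.22 in wild-type arrays. Of the 12 stem cell markers 3 fell and 3 rose, with a mean level of 11.37 to 11.45 in Mkl2-/- arrays and 11.50 to 11.51 in wild-type arrays. Their median level was 11.42 to 11.54 in Mkl2-/- arrays and 11.96 to 11.97 in wild-type arrays, while the median of their differences was -0.01. Klf4 (-0.69) and Nanog (-1.14) fell and Fgf4 (0.67) and Dppa5a (0.49) rose. Srf (-0.16; limma adjusted p = 0.0997) did not pass.

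The directions of the 5 integrin calls held with any single array left out, but the calls did not. Without wild-type replicate 2, none of the 10 passed (8 had an unadjusted p under 0.05), and over all genes limma made 0 calls there (4411 genes had an unadjusted p under 0.05). Without Mkl2-/- replicate 1 only Itgb1 passed, without Mkl2-/- replicate 2 Itga5 and Itgb1, without Mkl2-/- replicate 3 Itgb1 and Itgb5, and without wild-type replicate 1 Itgb1, Itgb4 and Itgb8. Over these 5 fits the difference of Itgb5 stayed between -0.76 and -0.655, that of Itga5 between -0.435 and -0.39 and that of Itgb4 between 0.29 and 0.41.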

How the data were processed

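Total RNA of 5 cultures (3 Mkl2-/-, 2 wild type) was labelled with biotin and hybridised to Affymetrix whole-transcript arrays, per the labels' protocols. Per the submitters' processing notes, the authors used RMA (Affymetrix Expression Console 1.1), and the deposited values are log2 intensities. This method subtracts background, quantile-normalizes and summarizes probes, so differences of dim features are compressed. Scan dates, batches and the build behind the annotation were not given in the sources used here.

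A platform annotation gave 1 symbol to 21789 of 35556 features; for each of 19938 genes the brightest feature by mean signal was kept. The genotypes were set against each other in limma 3.58.1 (R 4.3.3; lmFit and eBayes, two-sided, default prior, 3 residual and 0.885 prior degrees of freedom, Benjamini-Hochberg adjustment over all genes); the code was tested on simulated data. The text names the 10 integrin genes, other integrin subunits above background, up to 4 genes of each list with the smallest p, and preset partners; further genes were named after their values were seen. The integrin genes and lists were chosen with earlier results of these data known. Promoters came from RefSeq (7 of 10 genes had an entry) and figures from matplotlib 3.10.9.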

Additional observations from a re-analysis of the deposited data

How the results depend on the processing

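All 5 integrin calls kept their direction in each of the 11 alternatives, and passed under quantile normalization, cyclic loess, the restriction to genes above background, eBayes with trend and robust, and the mean of a gene's features. With quantile normalization or cyclic loess Itga1 and Itga6 also passed as lower. Over the fits that left out 1 array, 0 to 2 integrin genes passed as lower (4 with all arrays) and 0 to 1 as higher (1 with all arrays), and their median difference ran from -0.305 to -0.25. Over all genes those fits gave 0 to 490 lower and 0 to 474 higher calls, against 1252 and 596 with all arrays. Each has 1 residual degree of freedom fewer. Restricting the fit to genes above background removed Itga1, and the median of the remaining 9 was -0.215.

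Deviations of same-numbered arrays from their group means had correlations of -0.201 for number 1 and 0.191 for number 2. The deviations of the 2 wild-type arrays mirror each other, so this check cannot decide whether shared numbers mark pairs. The labels do not state a pairing, and the main fit used none. With the replicate number as a replicate block, in which Mkl2-/- replicate 3 carries no weight, limma made 0 calls among the integrin genes (5 with an unadjusted p under 0.05) and 0 over all genes in either direction (3827 with an unadjusted p under 0.05; smallest adjusted p 0.161), so every list had 0 calls there too.

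Quantile normalization gave 1254 higher calls over all genes, 43.2% of the calls against 32.3%, and cyclic loess gave 1979 lower and 970 higher. Both raised the higher adaptor calls to 4, against 2. They also gave 1 higher trophoblast call, as did the restriction to genes above background, against 0. The other list counts stayed within 1.5 times in these settings; with 1 array left out, adaptors had 0 to 2 lower and 0 to 1 higher calls, ligands 0 to 3 and 0 to 1, fibroblast markers 0 to 2 and 0 to 1, stem cell markers 0 to 3 and 0 to 1, primitive endoderm markers 0 to 1 lower and 0 to 2 higher (5 with all arrays), and trophoblast markers 0 to 1 lower. Srf passed as lower after cyclic loess (limma adjusted p = 0.0412) and Fermt2 among genes above background (0.0493).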
